A study of Rattus norvegicus with 16 samples.

Results

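Hippocampal RNA of all 12 rats given iron was compared with that of the 4 rats given saline, to look for differences shared by the 3 intervals after the infusion. The iron arrays were chosen by their titles, Lesioned_day5, Lesioned_day15 and Lesioned_day30 with 4 arrays each, and the saline arrays by the titles Control_1 to 4, so that all 16 arrays of the series entered. Each array held the right hippocampus of 1 male Wistar rat that had been fitted with a cannula at 5 weeks of age and infused 5 days later. The iron groups (Fe day 5, Fe day 15 and Fe day 30) had received 1 µl of 100 mM FeCl3 in saline at pH 2.2 in the right amygdala, and the controls 1 µl of saline at the same pH. All 16 rats thus shared the implant, the acid infusate and its volume. The controls were collected 15 days after the infusion, so that the rats of Fe day 5 and Fe day 30 were also killed sooner or later after the infusion than the controls. Per the series text, the iron rats had recurrent seizures, their rate was not measured, and none were seen in the controls. Iron, seizures and the lesion at the infusion site therefore cannot be told apart in this comparison. Some rats were prepared for microdialysis, and the labels do not say which.

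Ferric salts injected into the brain give rise to free radicals and leave a focus that fires repeatedly, which serves as a model of the epilepsy that can follow bleeding into the brain. The amygdala projects to the hippocampus, a region of layered excitatory cells (granule cells of the dentate gyrus and pyramidal cells of CA1 to CA3) that is drawn into limbic seizures. Neurons switch on immediate early genes such as Fos, Arc and Egr family members within minutes of firing, then later genes such as Bdnf, and the level of these RNAs is used as a record of recent activity.

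Levels are given as the log2 of the processed signal relative to the 75th percentile of each array, so that 0 is the level of a probe at that percentile and a difference of 1 is a doubling of signal. After removal of dim probes 26565 features remained, of which 9588 (36.1%) carried a gene symbol. The 75th percentile of the signal lay between 553.4 and 924.5, and 74.2% to 81.62% of transcript spots were well above background. Pearson's r over features was 0.993 to 0.995 between controls and 0.977 to 0.993 between iron arrays of 1 day. Within groups the median SD of a feature was 0.13 for saline, 0.18 for iron at days 5 and 15, and 0.19 for iron at day 30. Fe day 5 replicates 2 and 3 and Fe day 30 replicate 3 stood apart in markers of the choroid plexus and the meninges, and Fe day 15 replicate 4 and Fe day 30 replicate 3 in markers of microglia, with values given below. The hippocampal markers Neurod6 and C1ql2 lay above the 75th percentile on all 16 arrays, at no less than 1.83 and 2.52. Other markers of the same list did not. Wfs1 was −0.68 in Fe day 5 replicate 2, and Prox1 lay below that percentile on every array, at −4.30 in the same one. Neurod6 and C1ql2 thus do not show that the tissue was alike on all arrays. All 4 controls lay at position 1 of their slides, and 6 of the 12 iron arrays shared a slide with a control. These 6 pairs rest on 4 slides, with control replicates 2 and 3 in 2 pairs each.

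Pooling the iron arrays gave many small differences and none past the threshold of an adjusted p under 0.05. Limma called 0 of 26565 features (0%), and the lowest adjusted p was 0.111. At an unadjusted p under 0.05 there were 3395 features (12.8%), of which 2075 (7.81%) were lower in the iron rats and 1320 (4.97%) higher. Lower features thus made up 61.1% of these 3395, although the median difference over all features was −0.01. The median standard error of the pooled difference was 0.11, against 0.13 for a single day, and a feature at that spread needed a difference of 0.24 for an unadjusted p of 0.05. In 156 features (0.587%) all 12 iron arrays lay below all 4 controls, and in 56 (0.211%) all 12 lay above. Weighting the arrays by their quality called 77 features, 57 lower (0.215%) and 20 higher (0.0753%), and gave the controls a median weight of 1.39 and the iron arrays 0.827. Taking out slide differences called 0, and without control replicate 2 the count at an unadjusted p under 0.05 was 2075 in place of 3395. Scaling by the median of each array in place of the 75th percentile put 68.4% of the features at an unadjusted p under 0.05 on the lower side, and normexp background correction 75.3%, with 3 and 0 called. The share was 54.4% with array weights and 51.8% (1861 lower and 1733 higher) without the 3 arrays high in choroid plexus and meninges markers.

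The genes lowest in the iron rats with the smallest p were Slmap, Bin3, Stat6, Usp42, Bdnf, Cops7b, Ppm1k and Pcdhga5, at 1.20-fold to 1.62-fold below control. Slmap, a membrane-anchored protein, measured −2.36, −2.34, −2.41 and −2.50 in control replicates 1 to 4. In the iron rats it measured −2.83, −2.84, −2.62 and −2.89 at day 5, −2.93, −2.89, −2.86 and −3.15 at day 15, and −2.72, −2.74, −2.95 and −2.66 at day 30. Every iron array lay below every control, with a pooled difference of −0.44 ± 0.07 (SE, 12 against 4, adjusted p = 0.148). Bin3, a BAR-domain protein, measured −1.46 to −1.27 in the controls and −1.90 to −1.58 in the iron rats (median −1.74), a difference of −0.37 ± 0.06 (adjusted p = 0.148). Stat6, the transcription factor that relays interleukin-4 and interleukin-13 signals, measured −2.46 to −2.18 in the controls and −3.52 to −2.65 in the iron rats (−0.70 ± 0.13, 1.62-fold lower, adjusted p = 0.171). For Stat6 the day differences were close to one another at −0.73, −0.68 and −0.67 for days 5, 15 and 30. None of these 3 genes overlapped between iron and control.

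Usp42, a deubiquitinase, was lower by 0.27 with all 12 iron arrays below the controls (−0.27 ± 0.05, adjusted p = 0.221). Bdnf, the growth factor that neurons make on activity, measured 0.82, 0.77, 1.07 and 0.81 in the controls. It measured 0.56, 0.36, 0.64 and 0.66 at day 5, 0.03, 0.28, 0.48 and 0.02 at day 15, and 0.58, 0.54, 0.35 and 0.62 at day 30. All 12 iron values of Bdnf lay below the controls, by −0.44 ± 0.09 (adjusted p = 0.229), and its second probe gave −0.50. Of the other named genes with more than 1 probe, Usp42 had a second probe at −0.25, Zfp503 one at 0.32 against 0.63, and Bcl2l1 others at 0.17 and 0.08 against 0.23. Cops7b, a subunit of the COP9 signalosome, stood at −0.34 ± 0.07, Ppm1k, a mitochondrial phosphatase, at −0.36 ± 0.08, and Pcdhga5, a clustered protocadherin, at −0.43 ± 0.10. In each of these 3 genes 11 of 12 iron arrays lay below all controls, at adjusted p values of 0.229, 0.294 and 0.294. Where an iron array shared a slide with a control, Slmap was lower in 6 of 6 pairs (by −0.61 to −0.25), as were Bin3 (−0.56 to −0.28), Stat6 (−0.92 to −0.23), Usp42 (−0.45 to −0.12) and Bdnf (−0.79 to −0.16). In each of these genes all 12 iron arrays lay below all controls, so the 6 of 6 follows from that and adds no support. All the lower genes named above were chosen as the lowest p in their direction and did not pass the threshold.

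The genes higher in the iron rats with the smallest p were Rrad, Trim47, Pafah2, Arhgap17, Mical2, Zfp503, Bcl2l1 and Ssbp3. Trim47, a member of the TRIM ubiquitin ligase family, measured −1.44, −1.34, −1.32 and −1.43 in the controls. It measured −0.72, −0.55, −1.04 and −1.22 at day 5, −0.47, −0.68, −0.75 and −0.44 at day 15, and −1.12, −1.06, −0.67 and −1.20 at day 30. All 12 iron values of Trim47 lay above the controls, by 0.56 ± 0.12 (1.47-fold, adjusted p = 0.229). Rrad, a Ras-related GTPase known to restrain calcium channels, was higher in 11 of 12 iron arrays than in any control, at 0.34 ± 0.07 (adjusted p = 0.221), and stood highest at day 15 (0.17, 0.53 and 0.32 for days 5, 15 and 30). Bcl2l1, which blocks cell death at the mitochondrion, showed the same order of days at 0.12, 0.42 and 0.14 and a pooled difference of 0.23 ± 0.06 (adjusted p = 0.314). Mical2, an enzyme that oxidises actin, stood at 0.41, 0.89 and 0.42 and at 0.57 ± 0.13 pooled (adjusted p = 0.305).

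Arhgap17, a GTPase-activating protein, had the opposite order of days, with 1.14 at day 5, 0.19 at day 15 and 1.06 at day 30 (0.80 ± 0.19 pooled, adjusted p = 0.305). Its day 15 arrays, −1.82, −1.94, −1.84 and −1.28, overlapped with the controls at −2.06 to −1.76. Pafah2, a phospholipase that cleaves oxidised phospholipids, stood at 0.46, 0.48 and 0.40 (0.45 ± 0.10, adjusted p = 0.294). It is a dim probe, well above background on 3 of 4 controls and on all 12 iron arrays, and with normexp background correction its difference was −0.03. The zinc finger gene Zfp503 stood at 0.63 ± 0.15 and the transcriptional cofactor Ssbp3 at 0.38 ± 0.10, both at an adjusted p of 0.314. On shared slides Trim47 was higher in 6 of 6 pairs (by 0.12 to 0.87) and Rrad in 6 of 6 (by 0.04 to 0.58), whereas Arhgap17 was higher in 4 of 6. For Trim47 and Rrad the paired iron arrays lay above all controls, so the 6 of 6 follows from that and adds no support. With array weights 77 of 26565 features passed the threshold. Among them were 12 of the 16 genes named in these paragraphs, all except Mical2, Zfp503, Bcl2l1 and Ssbp3. None of the 16 changed direction under that setting. Both counts follow largely from the choice of these genes by lowest p on the same arrays, and are no evidence.

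**Figure D1:**
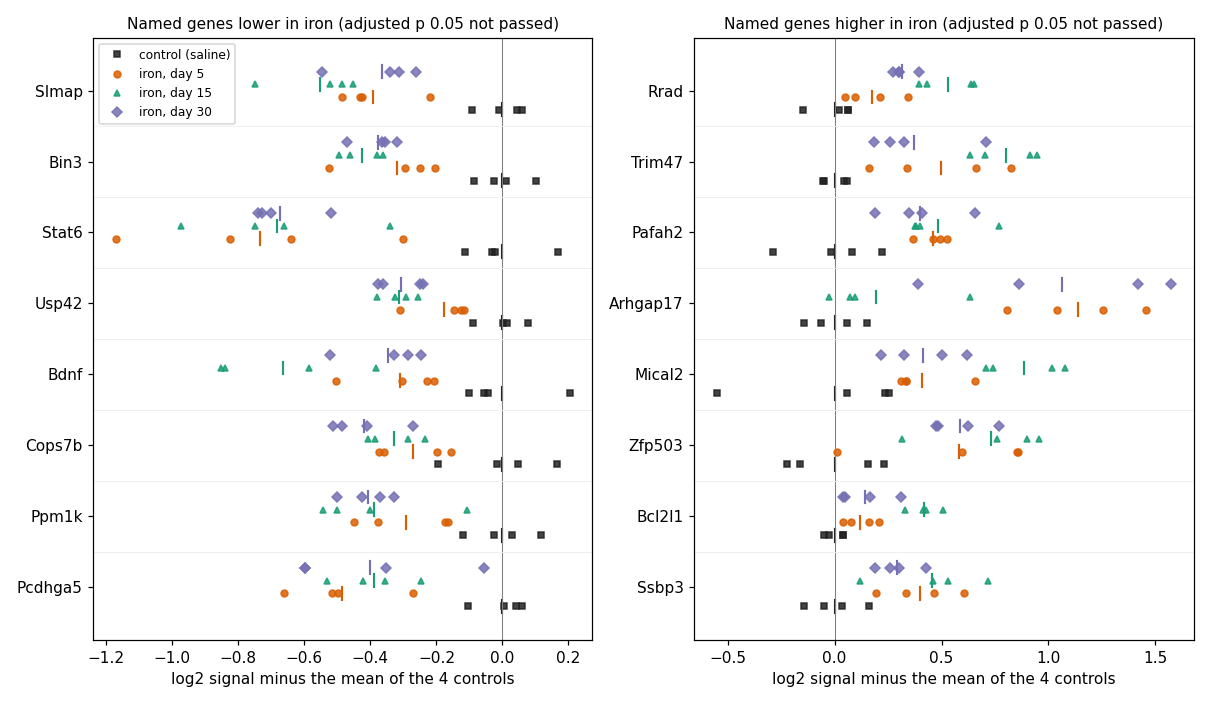
Log2 signal of each array minus the mean of the 4 controls (horizontal axis) for the 8 lower and 8 higher named genes (rows), with 4 arrays for each group and a vertical tick at each group mean. In Slmap, Bin3, Stat6, Usp42, Bdnf and Trim47 the 12 iron arrays lie on 1 side of all 4 controls, and Arhgap17 lies near the controls at day 15.

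Of 25 measured immediate early genes 22 were lower in the iron rats, 15 of them (60%) at an unadjusted p under 0.05 against 7.81% of all features, and 0 were higher at that level. The median difference of the list was −0.40. None of these members was called over all features. Their regulation runs in part through short promoter elements, the cAMP response element bound by CREB and the CArG box bound by serum response factor, so the promoters of 3 lower members with a match are shown. Of 25 measured members 18 had a promoter in the RefSeq table (assembly GRCr8). The 250 bases before the annotated start were searched on both strands. The palindrome TGACGTCA was found in 3 of these 18, against 466 of 27457 promoters (1.7%) in the table and 215 of 7822 (2.75%) among measured genes. A CArG box was found in 3 of 18, against 412 of 27457 (1.5%). Of the members with a match, Egr2, Dusp5 and Ier2 were among the 15 lower ones, and Klf6, Btg2 and Dusp1 were not. Capitals mark the CArG boxes of Egr2 (chr20:21054442-21054691, minus strand, first base at −83 from the start) and Dusp5 (chr1:262543524-262543773, plus strand, first bases at −82 and −72, side by side) and the TGACGTCA of Ier2 (chr19:40399123-40399372, plus strand, first base at −66).
Egr2: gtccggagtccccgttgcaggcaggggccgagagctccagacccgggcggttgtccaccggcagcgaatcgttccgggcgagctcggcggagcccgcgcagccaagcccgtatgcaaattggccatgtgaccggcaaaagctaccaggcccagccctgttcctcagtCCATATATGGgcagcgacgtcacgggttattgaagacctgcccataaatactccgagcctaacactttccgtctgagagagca
Dusp5: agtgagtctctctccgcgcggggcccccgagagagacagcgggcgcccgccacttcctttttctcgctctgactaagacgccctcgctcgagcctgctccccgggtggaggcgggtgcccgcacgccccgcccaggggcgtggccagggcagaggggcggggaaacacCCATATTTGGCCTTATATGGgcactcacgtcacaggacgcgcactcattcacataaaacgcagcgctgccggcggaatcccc
Ier2: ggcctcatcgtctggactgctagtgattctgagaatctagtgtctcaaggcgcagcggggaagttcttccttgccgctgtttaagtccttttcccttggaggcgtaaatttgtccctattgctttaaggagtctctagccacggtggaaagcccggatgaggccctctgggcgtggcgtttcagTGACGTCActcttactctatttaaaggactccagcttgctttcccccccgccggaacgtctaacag

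Egr4, a zinc finger transcription factor, measured 3.47, 3.35, 3.13 and 3.44 in the controls. It measured 2.80, 2.41, 2.70 and 3.16 at day 5, 2.42, 2.72, 2.94 and 2.21 at day 15, and 2.54, 2.51, 1.96 and 2.92 at day 30. Fe day 5 replicate 4 alone reached the controls, and the pooled difference was −0.74 ± 0.17 (1.67-fold lower, adjusted p = 0.294). Egr2, its relative, measured −1.05, −1.29, −1.82 and −1.03 in the controls. It measured −2.28, −2.28, −2.93 and −1.20 at day 5, −2.39, −2.55, −1.91 and −2.37 at day 15, and −3.19, −2.86, −3.19 and −1.99 at day 30. Again Fe day 5 replicate 4 was the 1 iron array inside the control range, and the pooled difference was −1.13 ± 0.27 (2.19-fold lower, adjusted p = 0.314). Nr4a3, an orphan nuclear receptor, lay below the controls on all 12 iron arrays (1.44 to 2.33 against 2.35 to 2.53, −0.48 ± 0.12, adjusted p = 0.314). Trib1, a pseudokinase, stood at −0.85 ± 0.23 with 10 of 12 arrays below all controls (adjusted p = 0.314).

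Other members are named here after their values were seen. Arc, a protein of dendrites that moves glutamate receptors off the surface, measured 4.77, 4.56, 4.31 and 4.26 in the controls. It measured 3.26, 2.36, 3.44 and 4.47 at day 5, 3.87, 3.56, 4.30 and 2.77 at day 15, and 3.12, 3.00, 2.68 and 4.28 at day 30. In 9 of 12 iron rats Arc lay below all controls, whereas 1 rat of each day was at control level (−1.05 ± 0.35, adjusted p = 0.329). Nr4a1, a nuclear receptor, stood at −0.91 ± 0.25 and Npas4, a factor induced by calcium entry, at −0.90 ± 0.28, each with 11 of 12 arrays below all controls. Npas4 was well above background on 4 of 4 control arrays but on 3 of 4 arrays of each iron day. It thus entered only through the controls, and its low values are partly at background. With only features above background on all 16 arrays, 14 of 24 members were lower at an unadjusted p under 0.05, against 8.27% of all features. The phosphatase gene Dusp5 stood at −0.71 ± 0.23 and Ier2 at −0.30 ± 0.13. Fos, the member most used as a mark of activity, stood at −0.40 ± 0.26 with 8 of 12 arrays below all controls and did not reach an unadjusted p of 0.05 (adjusted p = 0.515). The members that were higher were Klf6 at 0.18, Jun at 0.14 and Fosl2 at 0.09, again without reaching that level.

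The list score, which is the members' median distance from their control means in log2 signal, was 0.12, −0.05, −0.08 and 0.00 in the controls. It was −0.34, −0.48, −0.38 and 0.05 at day 5, −0.46, −0.57, −0.38 and −0.44 at day 15, and −0.49, −0.52, −0.86 and −0.26 at day 30. Fe day 5 replicate 4 was the 1 iron array within the control range. The others lay below all controls. It largely follows that the score was below the control of the same slide in 6 of 6 iron arrays, by −0.81 to −0.07. With slide as a fixed block the median was −0.28 and 5 of 25 members (20%) were lower at an unadjusted p under 0.05, against 4.83% of all features. Without the 3 arrays with high choroid plexus or meninges scores the median was −0.24 with 10 of 25 lower, against 7.01% of all features.

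**Figure D2:**
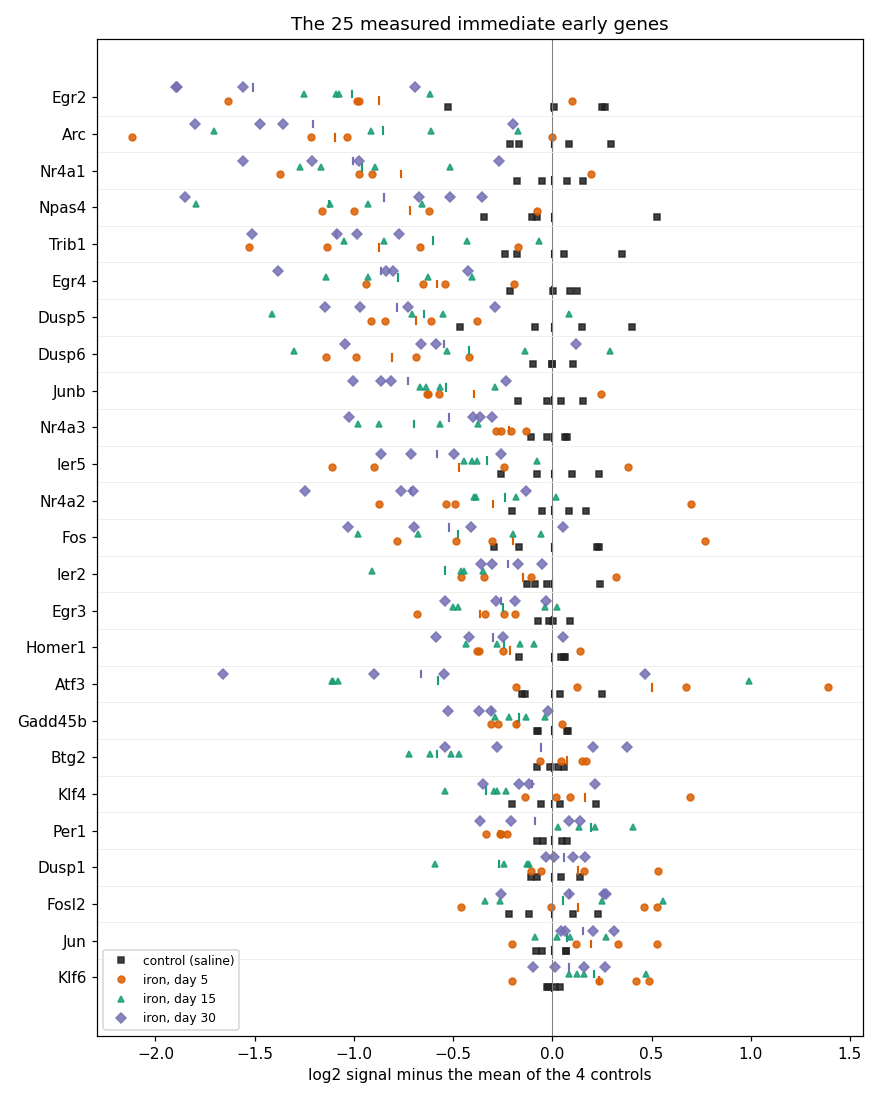
Log2 signal of each array minus the mean of the 4 controls (horizontal axis) for the 25 measured immediate early genes (rows, ordered by pooled difference), with 4 arrays for each group and a vertical tick at each group mean. Egr2 and Arc are at the low end, and Klf6, Jun and Fosl2 have means above the controls.

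Genes induced later by activity, with neuropeptides, had 5 of 21 measured members (23.8% against 7.81%) lower at an unadjusted p under 0.05 and 1 higher (4.76% against 4.97%), and a median of −0.19. Beside Bdnf, the lower ones were Plk2, Nptx2, Rasl11b and Nrn1. Plk2, a kinase that scales synaptic strength, measured 2.33 to 2.46 in the controls and 1.51 to 2.26 in the iron rats (median 1.89), so that all 12 lay below (−0.45 ± 0.13, adjusted p = 0.320). Nptx2, a secreted pentraxin that gathers AMPA receptors, stood at −0.31 ± 0.10, and Rasl11b, a Ras-like GTPase, at −0.64 ± 0.23. Fe day 15 replicate 3 was the 1 iron array with Rasl11b above all controls. The higher member was Tac1, the precursor of substance P, at 0.85 ± 0.38, with 2.20 in Fe day 15 replicate 1 against −0.88 to −0.27 in the controls and −0.99 in Fe day 5 replicate 3.

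Of 23 measured genes of glutamate receptors and transport 7 were lower at an unadjusted p under 0.05 (30.4% against 7.81% of all features) and 0 higher, with a median of −0.14. The AMPA receptor subunits Gria1 and Gria3 stood at −0.42 ± 0.14 and −0.32 ± 0.12 and were below all controls on 11 of 12 arrays each. Grin1, the obligatory NMDA receptor subunit, measured 3.61, 3.66, 3.61 and 3.56 in the controls and 2.96 to 3.55 in the iron rats, below all controls on all 12 arrays (−0.27 ± 0.10, adjusted p = 0.339). Slc1a3, a glial glutamate transporter, stood at −0.17 ± 0.06. On the higher side lay 7 of the 23. With slide as a fixed block 1 of the 23 (4.35% against 4.83% of all features) was lower at that level, and the median was −0.12.

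Among 32 measured voltage-gated ion channel genes 9 (28.1% against 7.81% of all features) were lower at an unadjusted p under 0.05 and 0 higher, with a median of −0.07. Kcnd2, which carries the A-type potassium current of dendrites, measured 2.56, 2.67, 2.55 and 2.51 in the controls. It measured 2.06, 1.47, 2.36 and 2.28 at day 5, 2.31, 2.23, 2.33 and 1.57 at day 15, and 2.09, 2.12, 1.74 and 2.39 at day 30, below the controls throughout (−0.49 ± 0.17, adjusted p = 0.329). The P/Q-type calcium channel gene Cacna1a stood at −0.54 ± 0.17 with 10 of 12 arrays below all controls, and the potassium channel Kcnh1 at −0.25 ± 0.09. Cacna1a was lower in 6 of 6 pairs of arrays on a shared slide. So was Kcnd2, where the count follows from the lack of overlap. Under the slide block 2 of the 32 (6.25% against 4.83%) were lower at that level, and the median was −0.14.

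Genes of inhibition lay on both sides of the controls. Of 18 measured GABA genes 2 were lower (11.1% against 7.81% of all features) and 3 higher (16.7% against 4.97%) at an unadjusted p under 0.05, with a median of −0.07. Gabra4, a receptor subunit of dentate granule cells, lay below the controls on all 12 iron arrays (−0.74 to 0.14 against 0.22 to 0.38, −0.49 ± 0.15). Gad1, the enzyme that makes GABA, was higher at 0.28 ± 0.11, as were the subunits Gabrg3 at 0.60 ± 0.22 (well above background on 3 of 4 controls, and −0.02 with normexp correction) and Gabra3 at 0.68 ± 0.31. Of 22 synaptic vesicle genes 2 were lower at that level (9.09%), and the median was −0.003, or −0.05 with slide as a fixed block and 0.03 with array weights. They were Unc13a, which primes vesicles (−0.48 ± 0.14, below all controls on 12 of 12 arrays), and Syn1, which tethers them (−0.18 ± 0.08).

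Markers of hippocampal principal neurons lay mostly below the controls. Of 15 measured markers of granule and pyramidal cells 14 were lower, 7 of them at an unadjusted p under 0.05 (46.7% against 7.81%), with a median of −0.31, and 0 were called over all features. In bulk tissue, fewer cells of a type and less RNA per cell cannot be told apart. Wfs1, a marker of CA1 pyramidal cells, measured 3.21, 3.18, 2.92 and 2.51 in the controls. It measured 0.82, −0.68, 2.23 and 2.10 at day 5, 2.37, 2.05, 2.80 and 1.62 at day 15, and 1.49, 0.92, 0.48 and 2.99 at day 30 (−1.35 ± 0.49, 2.56-fold lower, adjusted p = 0.335). The spread among iron rats was wide, and 2 of them lay within the control range.

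C1ql2, a synaptic organiser made by granule cells, was below all controls in 9 of 12 iron arrays (−0.52 ± 0.17), as was Neurod6, a factor of pyramidal neurons (−0.48 ± 0.20). Bok, listed here as a marker of CA3, stood at −0.71 ± 0.24, and Prox1, the granule cell factor, at −0.54 ± 0.25 with 10 of 12 arrays below all controls. The 1 member that was higher was Calb1, calbindin, at 0.29 ± 0.20. Of 12 general neuron markers 6 were higher and 6 lower, with a median of 0.002, or −0.04 with slide as a fixed block. The principal neuron score was −0.06 to −0.01 in the controls, −0.78 in Fe day 15 replicate 4 and −0.69 in Fe day 5 replicate 2, and −0.0015 in Fe day 5 replicate 3, just above the controls. Fe day 15 replicate 4 was also the array with the highest microglia score, 1.02, and the part of that in the result was not tested. With slide as a fixed block the median was −0.26 and 0 of 15 were lower at an unadjusted p under 0.05, against 4.83% of all features. That fit had 6 residual degrees of freedom in place of 12, so fewer features reach that level at a given difference. Without the 3 arrays with high choroid plexus or meninges scores the median was −0.34. In that setting 7 of 15 were lower at that level (46.7% against 7.01% of all features).

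Interneuron markers had a median of 0.18 with 7 of 9 measured members higher. Reln, the secreted protein of Cajal-Retzius cells and interneurons, was above all controls in 10 of 12 iron arrays (1.44 to 2.26 against 1.42 to 1.67, 0.31 ± 0.12), and Gad1 has been given above. Genes of neurogenesis and the cell cycle had 4 of 16 measured members higher at an unadjusted p under 0.05 (25% against 4.97%) and 0 lower, with a median of 0.25. The cyclins Ccna2 and Ccnb2 stood at 0.47 ± 0.15 and 0.33 ± 0.11 (Ccnb2 at −0.02 with normexp correction), the replication factor Mcm2 at 0.24 ± 0.10 and Sox11, a factor of newborn neurons, at 0.42 ± 0.15. Sox11 was highest in Fe day 15 replicates 1 and 4, at −3.38 and −3.19 against −4.45 to −4.19 in the controls, and lowest in Fe day 30 replicate 4 at −4.56. Under the slide block 1 of 16 (6.25% against 2.85% of all features) was higher at an unadjusted p under 0.05.

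Of 21 measured genes that handle iron 1 was higher and 1 lower (4.76% each, against 4.97% and 7.81% of all features) at an unadjusted p under 0.05. The median was 0.12, and 0.05 without the 3 arrays high in choroid plexus and meninges markers. The higher one was Heph, hephaestin, a copper enzyme that oxidises ferrous iron on its way out of cells. Heph measured −2.76, −2.92, −2.84 and −2.92 in the controls. It measured −1.60, −1.11, −2.18 and −1.65 at day 5, −1.65, −2.53, −2.63 and −1.53 at day 15, and −2.42, −1.89, −1.53 and −2.79 at day 30. In 11 of 12 iron rats it lay above all controls, by 0.90 ± 0.25 overall (1.87-fold, adjusted p = 0.314). On shared slides it was higher in 6 of 6 pairs, which largely follows from that count. The lower one was Slc11a2, the divalent metal transporter that brings iron into cells, at −0.22 ± 0.08 with 10 of 12 arrays below all controls. The ferritin chains Fth1 and Ftl1 stood at 0.15 ± 0.11 and 0.04 ± 0.09, and Hmox1, the haem oxygenase induced by haem and oxidants, at 0.13 ± 0.17. These 3 genes are named after their values were seen.

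Of 23 measured targets of Nrf2 and antioxidant enzymes 4 were higher at an unadjusted p under 0.05 (17.4% against 4.97%) and 0 lower, with a median of 0.02. Gsta4, a glutathione transferase that clears products of lipid peroxidation, was above all controls in 11 of 12 iron arrays at 0.54 ± 0.21. Sod1 and Prdx2 stood at 0.14 ± 0.06 and 0.15 ± 0.06 with 11 and 10 of 12 arrays above all controls. Gpx3, an extracellular glutathione peroxidase, stood at 0.75 at day 5, 0.75 at day 15 and 0.10 at day 30. Under the slide block 1 of the 23 (4.35% against 2.85% of all features) was higher at an unadjusted p under 0.05.

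**Figure D3:**
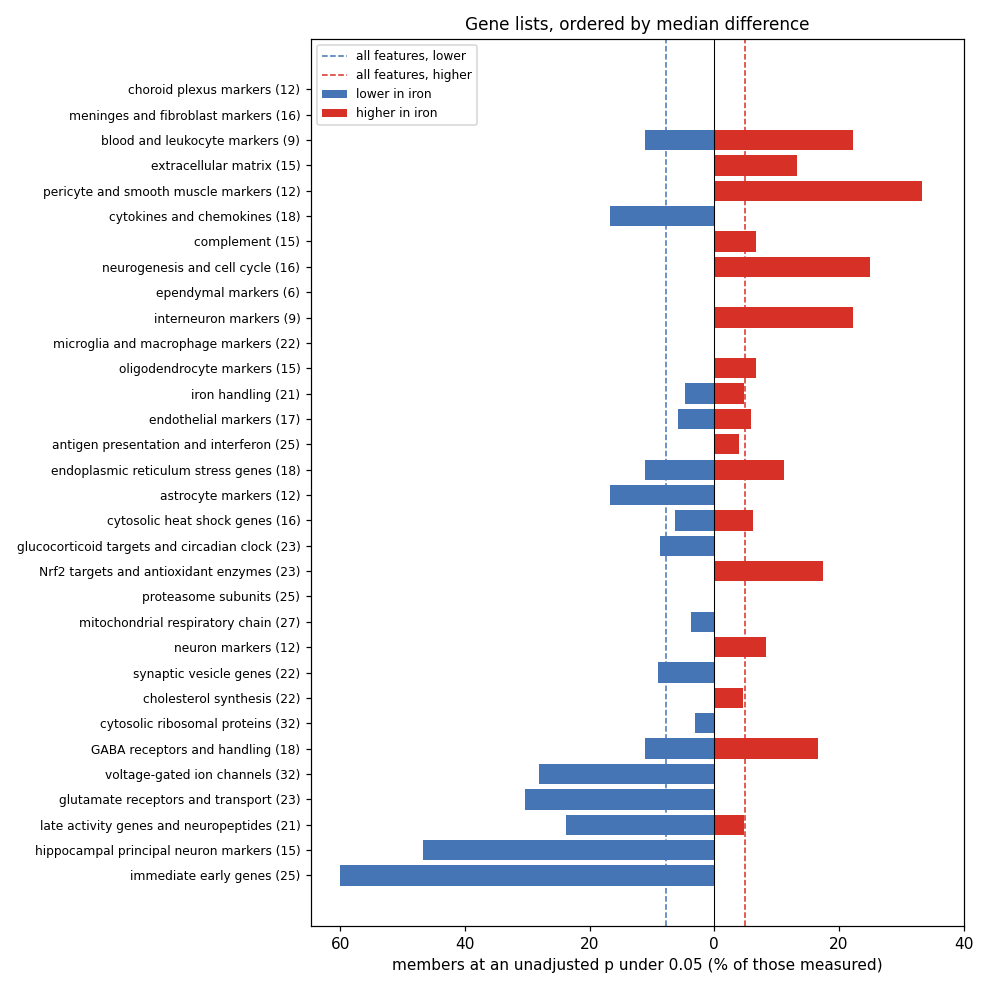
Members of each gene list at an unadjusted p under 0.05, as a percentage of the members measured (number in brackets), lower in iron to the left and higher to the right; dashed lines give the shares of all features, 7.81% lower and 4.97% higher. Immediate early genes reach 60% lower, and 0 members of the choroid plexus and meninges lists pass although their medians are the highest.

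Markers of tissue around the hippocampus had the largest medians and the least even values. All 12 measured choroid plexus markers were higher, with a median of 1.23, and all 16 markers of the meninges and fibroblasts, with a median of 1.02, but 0 of either list reached an unadjusted p of 0.05. The choroid plexus score was −0.17 to 0.20 in the controls and reached 5.58 in Fe day 30 replicate 3, 3.05 in Fe day 5 replicate 3 and 1.77 in Fe day 5 replicate 2. The meninges score was 3.23, 2.33 and 3.93 in the same arrays, against −0.06 to 0.09 in the controls. The other 9 iron arrays had choroid plexus scores of −0.12 to 1.01 and meninges scores of 0.04 to 0.73. Without the 3 arrays the medians were 0.41 (9 of 12 higher, 3 of them at an unadjusted p under 0.05) and 0.26 (14 of 16 higher, 3 at that level). Those at that level were 25% and 18.8% of the lists, against 6.52% of all features. The 3 arrays were left out for their high values of these same markers, which narrows the markers' spread. These shares are therefore no evidence of a difference in the other 9 iron arrays. Ttr, transthyretin of the choroid plexus, measured 7.78 in Fe day 30 replicate 3 and −2.64 to 0.04 in the controls. How far this tissue bears on the other differences was not tested beyond the values given without these arrays.

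Extracellular matrix genes had a median of 0.43 and 0.23 without the 3 arrays, whose matrix scores were 2.04, 0.72 and 1.63. Of 15 measured members 2 were higher at an unadjusted p under 0.05 (13.3% against 4.97%), Col5a1 at 0.73 ± 0.30 and Sparc at 0.46 ± 0.20. Col3a1, a fibrillar collagen, lay above the controls on all 12 iron arrays, but Fe day 30 replicate 1 did so by 0.001 and Fe day 5 replicate 2 by 4.83. Its pooled difference was 1.48 ± 0.80 (adjusted p = 0.445). Markers of the mural cells of vessels, pericytes and smooth muscle, were higher in 12 of 12 measured members with a median of 0.35. Of these 4 (33.3% against 4.97% of all features) were higher at an unadjusted p under 0.05. They were Mustn1, Rgs5, Tagln and Anpep, at 0.68 ± 0.25, 0.27 ± 0.11, 0.87 ± 0.39 and 0.64 ± 0.29. Mustn1 lay above the controls on all 12 iron arrays, and Tagln and Mustn1 were highest in the 3 arrays that were high in meninges markers. With these arrays left out 3 of 12 members (25% against 6.52% of all features) were higher at that level and the median was 0.23. With slide as a fixed block 0 were, against 2.85%.

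Microglia and macrophage markers had a median of 0.13 with 20 of 22 members higher and 0 at an unadjusted p under 0.05. The median was 0.01 with 13 of 22 higher without the 3 arrays high in choroid plexus and meninges markers, and 0.004 with 11 of 22 higher with slide as a fixed block. The microglia score was 1.02 in Fe day 15 replicate 4 and 0.95 in Fe day 30 replicate 3, against −0.36 to 0.24 in the other 10 iron arrays and −0.12 to 0.12 in the controls. Astrocyte markers had a median of 0.06 (−0.01 with slide as a fixed block), with Slc1a3 and Slc1a2 lower and Gfap at 0.14 ± 0.25, and oligodendrocyte markers 0.12. With slide as a fixed block the oligodendrocyte median was 0.31, with 15 of 15 members higher and 5 of them (33.3% against 2.85% of all features) at an unadjusted p under 0.05. Of 18 measured cytokines and chemokines 14 were higher, with a list median of 0.28. That median was 0.14 (13 of 18 higher) without the 3 arrays high in choroid plexus and meninges markers, and 0.11 with normexp correction. The 3 members at an unadjusted p under 0.05 (16.7% against 7.81%) were all lower. They were Cx3cl1, the neuronal ligand of the microglial receptor Cx3cr1, Il33, an alarmin of glia, and Il16. Cx3cl1 measured 7.45, 7.51, 7.30 and 7.41 in the controls and 6.71 to 7.30 in the iron rats (median 7.06), below all controls on 12 of 12 arrays before rounding (−0.40 ± 0.11, adjusted p = 0.314). Blood and leukocyte markers had a median of 0.72, or 0.18 with normexp correction. Of 9 measured members 2 were higher (22.2% against 4.97%) and 1 lower (11.1% against 7.81%) at an unadjusted p under 0.05. The higher ones were the neutrophil proteins S100a9, at 1.00 ± 0.27 with 10 of 12 arrays above all controls, and S100a8. Over the alternative settings the difference of S100a9 went down to 0.14 and that of S100a8 to 0.16. S100a8 was well above background on 1 of 4 control arrays, and on 4, 3 and 2 of 4 arrays at days 5, 15 and 30, so that its fitted difference of 1.81 ± 0.47 is taken largely against background and S100a8 entered only through day 5. The 1 lower member was Cd3e, a chain of the T cell receptor complex, at −3.41 ± 1.39, with −2.69 to −1.27 in the controls and −8.96 to −1.52 in the iron rats (median −5.94). Cd3e was well above background on 4 of 4 controls and on 2, 3 and 2 of 4 arrays at days 5, 15 and 30. It thus entered only through the controls, and its fitted difference is taken largely against background.

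**Figure D4:**
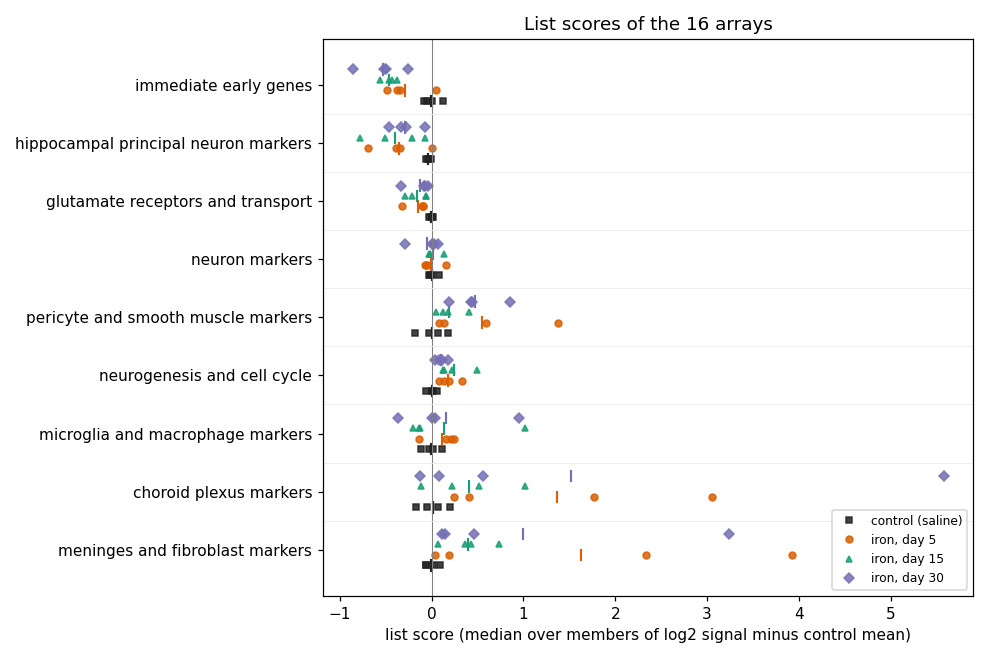
List scores of the 16 arrays (horizontal axis, log2; median distance of members from their control means) for 9 lists, with 4 arrays for each group and a vertical tick at each group mean. Immediate early scores lie below the controls in 11 of 12 iron arrays, whereas choroid plexus and meninges scores are high in 3 iron arrays.

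The 84 genes with a symbol in which iron and control arrays did not overlap are described next, chosen by their values and so without a test. Of these 69 were lower, by 0.10 to 0.996 on the log2 scale, and 15 higher, by 0.14 to 2.35. They come from 9588 features with a symbol, and over all features 0.587% lay below and 0.211% above all controls. An unadjusted p under 0.05 was reached by 82 of them, a count that follows largely from how they were chosen and is no evidence. Besides Grin1, Gabra4, Kcnd2 and Unc13a the lower ones included Dlg4, the scaffold PSD-95 (−0.37 ± 0.11), and Syndig1, a partner of AMPA receptors (−0.48 ± 0.16). Dlg4 measured 0.55 to 0.70 in the controls and −0.05 to 0.52 in the iron rats. The lower gene with the largest difference was Zap70, a kinase of T cell receptor signalling, at −0.996 ± 0.26. Heat shock and endoplasmic reticulum stress lists, with 16 and 18 measured members, each held 1 such gene. These were Dnajb5 (−0.51 ± 0.18) and Atf6 (−0.31 ± 0.09), while the medians of these lists were 0.05 and 0.06.

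Plagl1 had the largest difference of the 84. This zinc finger gene, which is imprinted and expressed from the paternal copy, measured −5.85, −5.56, −4.98 and −4.49 in the controls. It measured −1.49, −0.67, −4.10 and −4.38 at day 5, −3.94, −2.88, −3.16 and −1.53 at day 15, and −2.92, −2.66, −2.27 and −4.47 at day 30 (2.35 ± 0.64, 5.09-fold higher, adjusted p = 0.314). Nnat, neuronatin, another imprinted gene, measured 4.61, 4.59, 4.67 and 4.78 in the controls. It measured 6.18, 7.03, 5.19 and 4.87 at day 5, 5.00, 5.71, 4.92 and 6.26 at day 15, and 5.72, 5.61, 5.75 and 4.79 at day 30 (0.92 ± 0.34, adjusted p = 0.336). Bace2, a protease related to the beta-secretase of the amyloid precursor, measured −2.42 to −2.31 in the controls and −2.24 to 0.22 in the iron rats (0.82 ± 0.37). In all 3 genes Fe day 5 replicate 2 was the highest iron array, and Fe day 30 replicate 4 the lowest, with every iron array still above the controls.

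In several of these genes the iron rats of 1 day were spread widely. Fe day 30 replicate 4 was the iron array nearest to the controls in Plagl1, Nnat, Wfs1 and Heph. In Arc that place was taken by Fe day 15 replicate 3, Fe day 5 replicate 4 and Fe day 30 replicate 4 together, at 4.28 to 4.47 inside the control range of 4.26 to 4.77. Fe day 5 replicate 2 was farthest from the controls in Plagl1, Nnat, Wfs1, Heph and Arc, and Fe day 15 replicate 4 was the farthest of its day in all of them. Stat6 did not follow this order: Fe day 30 replicate 4, at −3.09, was the lowest of its day. These rankings describe genes picked for the size of their differences, and seizures of single rats are not given in the labels.

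**Figure D5:**
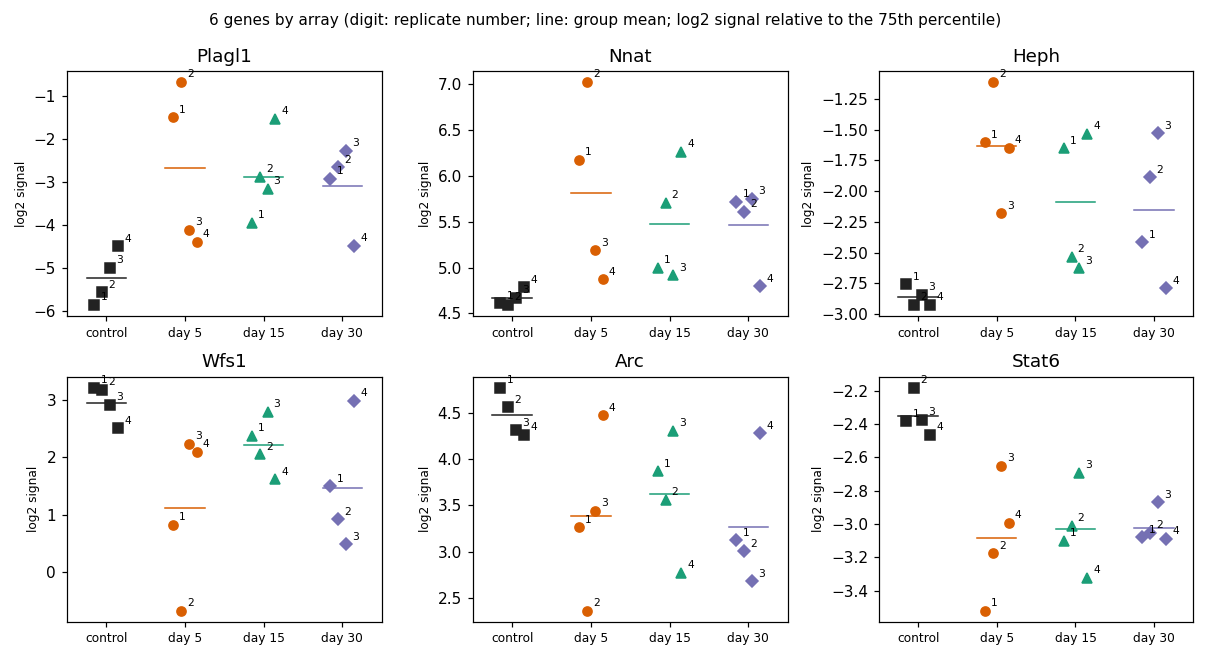
Log2 signal relative to the 75th percentile of each array (vertical axis, a separate scale for each gene) for 6 genes in the 4 groups; the digit is the replicate number and the line the group mean. In Plagl1, Nnat, Wfs1, Heph and Arc replicate 2 of day 5 is farthest from the controls and replicate 4 of day 30 is within or near them, while in Stat6 that array is the lowest of its day.

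The 3 iron days were compared with one another by an F-test in the same fit. It called 0 features (0%), with 1590 (5.99%) at an unadjusted p under 0.05 and a lowest adjusted p of 0.380. Of the 3395 features at an unadjusted p under 0.05 in the pooled comparison 297 (8.75%) were also at that level in the F-test. The 4 genes with the lowest p in the F-test all set day 15 or day 5 apart. Zfp26, a zinc finger gene, stood at 0.07, −0.52 and −0.05 for days 5, 15 and 30, and Dus2, a tRNA dihydrouridine synthase, at 0.24, −0.34 and 0.22. Slc15a4, a lysosomal histidine and peptide transporter, stood at 0.0002, 0.33 and −0.02, with day 15 arrays of 1.56 to 1.81 against 1.30 to 1.42 in the other iron arrays. Tmem202 stood at −0.36, 0.04 and −0.06. Their adjusted p in the F-test was 0.501. The day differences share the 4 controls, so agreement between them is no independent evidence.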

How the data were processed

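In all, 16 1-colour arrays were used, 1 per rat, 12 iron and 4 saline. Per the file headers and the submitters' processing notes, the deposited intensities came from Agilent Feature Extraction 9.5, and the deposited series table held the same processed signal (100% of values equal at a relative tolerance of 1e-06). Here its log2 was taken, minus the 75th percentile of each array. Probes well above background on all controls or all arrays of 1 iron day were kept (30548), and the probe with the highest mean stood for a gene. Limma 3.58.1 in R 4.3.3 fitted 4 group means; the mean of the 3 iron groups was set against the control, with Benjamini-Hochberg adjustment over 26565 features, and an F-test compared the iron days. The fit was tested on simulated data. Median pixel and background intensities, deposited beside the processed signal, served normexp correction (offset 50). No spot was saturated.

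Genes were named by rule: called symbols whose iron and control values did not overlap, and, since 0 were called, the 8 lowest p in each direction, up to 4 of the lowest p in each list and the 4 lowest p in the F-test. Members and lists were chosen with earlier results of these data known. Other named genes were chosen after their values were seen, and some genes that the rule names are not reported here. Each array is 1 rat, and the number of arrays limits the precision.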

Additional observations from a re-analysis of the deposited data

Results flagged for a closer look

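Of 504 groups of 4 arrays tested (genes, probes and list scores, each in 4 groups), 36 (7.14%) had 1 array whose gap to its nearest neighbour, divided by the range of the group, was above the critical value of Dixon's test at the 95% level, a size that chance gives in about 1 of 20 groups. Fe day 30 replicate 3 was that array 10 times, control replicate 2 8 times, Fe day 15 replicate 4 6 times and Fe day 5 replicate 2 5 times. The ratios follow, array by array. Fe day 30 replicate 3 was the highest of its group in Stat6 (0.83), iron handling (0.863), antigen presentation and interferon (0.948), choroid plexus markers (0.881) and meninges and fibroblast markers (0.888), and the lowest of its group in Nr4a3 (0.867), Tac1 (0.867), C1ql2 (0.955), glutamate receptors and transport (0.849) and voltage-gated ion channels (0.929). Control replicate 2 was the highest of its group in Plk2 (0.946), Unc13a (0.849), Ccna2 (0.934), Slc11a2 (0.943) and Atf6 (0.841), and the lowest of its group in complement (0.979), cytokines and chemokines (0.889) and blood and leukocyte markers (0.871). Fe day 15 replicate 4 was the highest of its group in Pafah2 (0.943), Ccna2 (0.963), complement (0.855), cytokines and chemokines (0.856) and microglia and macrophage markers (0.942), and the lowest of its group in Kcnd2 (0.876). Fe day 5 replicate 2 was the highest of its group in Mical2 (0.93) and Gsta4 (0.849), and the lowest of its group in Usp42 (0.844), C1ql2 (0.936) and glutamate receptors and transport (0.936). Control replicate 4 was the lowest of its group in Cacna1a (0.861). Control replicate 1 was the highest of its group in Tagln (0.959). Fe day 5 replicate 3 was the lowest of its group in Prdx2 (0.833). Fe day 30 replicate 4 was the lowest of its group in Nnat (0.856). Control replicate 3 was the lowest of its group in Tmem202 (0.929). Fe day 5 replicate 1 was the highest of its group in neuron markers (0.886). Fe day 15 replicate 2 was the highest of its group in neuron markers (0.91).

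Dus2 stood on opposite sides of the control mean on different days. All 4 arrays of day 5 (0.239) and of day 30 (0.215) lay above it, and all 4 of day 15 (−0.337) below it. In the F-test among days its adjusted p was 0.501, so the difference between days did not pass the threshold.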

How the results depend on the processing

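The number of features called was 0 in the fit as reported. It was 77 with array weights, 3 with quantile normalization, 3 with the median of each array, 1 without a filter on dim probes, 1 with the replicate number as a block and 3 without the Fe day 5 group. It was 32 with 1 weight for the controls and 1 for the iron arrays, which was chosen after seeing the data. Leaving out 1 array at a time gave 0 to 2. The count at an unadjusted p under 0.05 was 3395, against 5650 with array weights, 2042 with slide as a fixed block and 5305 with the 2 weights, and 2075 (without control replicate 2) to 3995 when 1 array was left out. Of 25 immediate early genes 15 were lower at that level, beside 7.81% of all features. The count was 5 with slide as a fixed block (4.83% of all features). It was 4 over the 10 arrays on slides with a control, chosen after seeing the data (5.54% of all features). With 1 array left out it was 10 to 17 (4.53% to 9.01% of all features). Residual degrees of freedom were 12 in the fit as reported, and 6 and 3 in these 2 slide settings, so the counts are not on 1 footing. The F-test called 0, and 0 to 6 with 1 array left out (6 without Fe day 15 replicate 4). The cause of these shifts was not tested. The replicate numbers do not pair the samples, with mean correlations of −0.035 to 0.06 between same-numbered arrays. With the replicate block the count at an unadjusted p under 0.05 was 3067. In that setting 16 of 25 immediate early genes were lower at that level, against 6.62% of all features. The median of the immediate early genes kept its sign under 34 alternatives, from −0.48 to −0.23, as did that of the principal neuron markers. No gene was called, but some uncalled differences changed sign. With normexp correction Pafah2 was −0.027, Gabrg3 −0.015, Ccnb2 −0.016 and Pecam1 −0.040. With quantile normalization Cox6a1 was 0.045 and Rpl35 0.0029. Bhlhe40 was 0.012 and Gap43 −0.034 with slide as a fixed block, and Bhlhe40 was 0.0084 over the 10 arrays on slides with a control. Cfap126 was −0.083 without the 3 arrays that had high choroid plexus and meninges scores and −0.0071 without the Fe day 30 group. Probes that were not well above background on every array of a group have values there that are partly background.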
